A study of Mus musculus with 6 samples.

Results

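A set of 10 genes of the Nfe2l2 (NRF2) antioxidant response were followed through the H3K27ac peaks of low pigmented (LP) and high pigmented (HP) melanoma cells. The 10 genes were Nfe2l2, Keap1 and Mafg, which regulate the response, and Hmox1, Nqo1, Gclc, Gclm, Slc7a11, Txnrd1 and Srxn1, which carry it out. Their peaks were the ones that lay in the gene or within 10 kb on either side of it (GENCODE, mm10). Merging the peaks of the 4 libraries gave 129 regions at these genes, out of 182956 regions in the genome. The cells were B16 F10, a mouse melanoma line, harvested at day 5 after seeding at 100 cells per cm2, a density from which cultures of this line gain pigment as they grow. LP and HP cells were separated by side scatter in a flow cytometer, which rises with melanin but is not a measure of melanin itself. Each population had 2 H3K27ac libraries. Neither population was treated or genetically changed, and both came from 1 tumour line, so the replicates measure spread between cultures or preparations of that line and not between animals. The LP and HP libraries with the same replicate number were prepared as one set from equal amounts of DNA, and are called set 1 and set 2 here.

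H3K27 acetylation is a histone mark of active promoters and enhancers, and its level does not measure the transcript or the protein. NRF2, the protein of Nfe2l2, is held in the cytoplasm and passed to degradation by KEAP1. Oxidants or electrophiles modify KEAP1, after which NRF2 enters the nucleus, pairs with a small MAF protein such as MAFG and binds antioxidant response elements (AREs) near its target genes. Melanin synthesis generates hydrogen peroxide and reactive quinones, and melanocytes use glutathione and cystine, which SLC7A11 imports, both for defence and for the sulphur of pheomelanin.

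AREs were looked for in the mm10 sequence of the regions, because they are the sites by which these genes are known to respond. The core was searched as TGACNNNGC on both strands. Its form TGACTCAGC, which also contains the AP-1 motif TGANTCA, is called the full element here and was singled out after the matches had been seen. Of the 48 regions at the 10 genes that at least 2 libraries shared, 23 (47.9%) held a core anywhere in the region, 50 cores in all, and 7 of these were full elements. Of all 33437 regions shared by at least 2 libraries 36.3% held a core. The density was 0.750 cores per kb at the 10 genes and 0.459 over all shared regions. The full elements lay at 3 genes, Hmox1 with 4, Mafg with 2 and Gclc with 1. They are printed 5′ to 3′ with the element in capitals, which read GCTGAGTCA, the reverse complement of the full element.
Hmox1, 9.67 to 9.61 kb upstream, chr8:75083937-75084026, plus strand: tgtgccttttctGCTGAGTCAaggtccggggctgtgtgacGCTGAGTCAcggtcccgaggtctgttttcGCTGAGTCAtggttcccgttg
Hmox1, 3.92 to 3.87 kb upstream, chr8:75089686-75089770, plus strand: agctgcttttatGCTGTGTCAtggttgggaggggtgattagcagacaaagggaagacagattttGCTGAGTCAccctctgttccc
Gclc, 3.79 kb upstream, chr9:77750723-77750775, plus strand: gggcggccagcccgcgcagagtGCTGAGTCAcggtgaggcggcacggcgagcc
Mafg, 623 bases downstream of the first annotated start, chr11:120632963-120632991, minus strand: gcggagacgtGCTGAGTCAtcagcatgag
Mafg, 66 bases upstream of an internal start, chr11:120630200-120630228, minus strand: gaggcgatccGCTGAGTCAgcatgactcg
In the second Hmox1 sequence the first capitals, GCTGTGTCA, are a core and not a full element. The sequence 10 kb upstream of Hmox1 held 3 full elements.

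Cores also lay in the promoters of other genes. In the RefSeq promoter sequences of GRCm38, which run from 250 bases before a start to 50 after it, 8 of the 10 genes had an entry, and Hmox1 and Gclc had none. A core was present in 5 of their 10 entries and in 12.4% of all 32851 entries. None of the 10 held a full element, which 0.454% of all entries did. The 4 cores upstream of a RefSeq start are shown to set their letters beside the full elements.
Txnrd1, 92 bases before the RefSeq start, chr10:82859092-82859144, plus strand: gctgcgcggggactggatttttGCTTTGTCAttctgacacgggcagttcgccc
Nfe2l2, 240 bases before the RefSeq start, chr2:75704873-75704913, minus strand: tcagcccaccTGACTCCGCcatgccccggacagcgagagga
Gclm, 134 bases before the RefSeq start, chr3:122245401-122245453, plus strand: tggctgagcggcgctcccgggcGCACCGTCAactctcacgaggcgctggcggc
Mafg, 222 bases before the RefSeq start, chr11:120633739-120633791, minus strand: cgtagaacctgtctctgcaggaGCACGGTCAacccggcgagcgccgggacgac
Within 100 bp of the summit, 11 of the 129 regions (8.53%) had a core against 7.42% of all regions. The M-box of MITF, the melanocyte master regulator, had 0 matches as TCACGTG and 3 (2.33%) as TCATGTG, against 1.05% and 3.58% of all regions. The AP-1 motif had 4 (3.10%) against 5.74%. A match is a description of the sequence, and the libraries do not measure binding of NRF2, MITF or AP-1.

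The libraries held between 11467942 and 15353176 fragments. A pileup is the number of fragments over a peak's summit, and it was expressed per 1000000 fragments of its library for comparison (scaled pileup). The lists hold no value outside peaks, and the absence of a peak means no more than that a site missed the caller's threshold. HP replicate 2 stood apart from the other 3 libraries: over the 12084 regions called in all 4, its log2 scaled pileup exceeded that of HP replicate 1 by a median of 0.67, whereas the LP replicates differed by −0.06 (replicate 2 minus replicate 1). Over these regions HP exceeded LP by a median log2 ratio of 0.57 in set 1 and 1.30 in set 2. With 2 libraries against 2, no exact permutation test can give a two-sided p below 0.333, so tests are those of limma over the 12084 regions with Benjamini-Hochberg adjustment, which called 4.01% of them higher in HP at 0.05. Promoter regions of the 8 melanocyte markers Mitf, Sox10, Pax3, Tyr, Tyrp1, Dct, Pmel and Mlana were called in all 4 libraries. Summed over these 8 genes, the scaled pileups came to 14.1 and 15.7 in the LP libraries and to 26.7 and 44.8 in the HP libraries. None of 8 markers of other cells had a promoter region in all 4 libraries, and Ptprc, Cd3e, Adgre1 and Alb had none in any. Their summed level was 0 and 1.11 in the LP libraries and 1.22 and 1.89 in the HP libraries, and their part in the results was not tested.

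Each of the 10 genes had a promoter region, within 3 kb of an annotated start, that was called in all 4 libraries, which held for 45.3% of protein-coding genes. The genes nevertheless stood at both ends of the scale. Among 8552 such promoter regions, ranked by mean scaled pileup, Mafg stood at percentile 99.2, Nfe2l2 at 98.3 and Srxn1 at 96.6. Txnrd1, Gclm, Keap1 and Gclc followed at 83.7, 80.9, 76.2 and 72.6. Hmox1 stood at 17.4, Nqo1 at 2.93 and Slc7a11 at 1.38. A pileup is read at 1 base, so the length of a gene does not enter these levels, although a wider region offers more summits from which the highest was taken. Between neighbours in this order the 4 values overlapped. Compared within each library, Nfe2l2 exceeded Srxn1, Srxn1 exceeded Txnrd1, Gclc exceeded Hmox1 and Hmox1 exceeded Nqo1 in 4 of 4 libraries. The other neighbours changed order between libraries, in 2 or 3 of which the gene named first was higher.

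**Figure D1:**
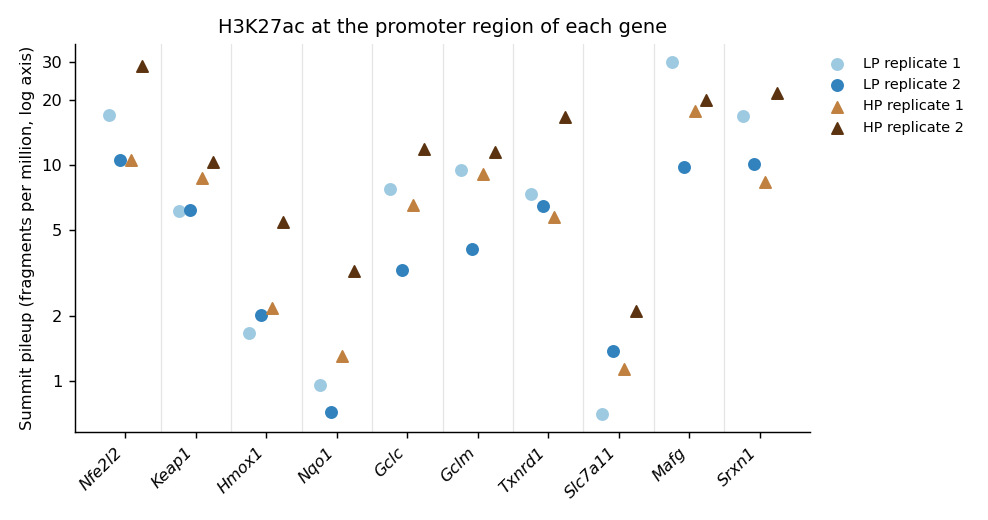
Scaled summit pileup (log axis) at the promoter region of each gene, with 1 point per library (circles LP, triangles HP). Mafg, Nfe2l2 and Srxn1 lie highest and Nqo1 and Slc7a11 lowest, and HP replicate 2 is the highest point at each gene except Mafg, where LP replicate 1 is.

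Of the regulators, Nfe2l2 itself had scaled pileups of 17.2 and 10.6 in LP replicates 1 and 2 and of 10.5 and 28.8 in HP replicates 1 and 2. LP and HP overlapped, since HP replicate 1 was as low as the lower LP library. The log2 ratio of HP to LP was 0.37 (SE 0.54, limma adjusted p = 0.529), but −0.71 in set 1 and 1.45 in set 2. In these bulk libraries, more of the mark in every cell and more cells that carry it cannot be told apart. The region, chr2:75701116-75706565, spans the start, and a gene on the other strand, E030042O20Rik, starts next to it, so the signal of the 2 genes cannot be told apart. The 3 promoter regions nearest to it in their 4 values were those of Puf60 (0.189), Efcab2 (0.214) and Atp5g2 (0.224), by Euclidean distance in log2 scaled pileup over 8551 promoter regions and 4 libraries.

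The promoter region of Keap1, whose product sequesters NRF2, was more even. Its scaled pileups were 6.10 and 6.19 in LP and 8.71 and 10.3 in HP, with both HP libraries above both LP libraries. The log2 ratio was 0.62 (SE 0.54, adjusted p = 0.318), with 0.51 in set 1 and 0.74 in set 2.

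Mafg, which encodes a small MAF partner of NRF2, had the highest promoter of the 10 genes. The scaled pileups were 30.3 and 9.84 in LP and 17.9 and 20.1 in HP, so both HP libraries fell between the LP libraries. The log2 ratio was 0.13 (SE 0.54, adjusted p = 0.817). A second promoter region lies over an internal start of Mafg at chr11:120628679-120630788 and holds 1 of the 2 full elements printed above. It was far lower, with 1.05 and 1.04 in LP and 1.65 and 2.95 in HP. Here both HP libraries exceeded both LP libraries (log2 ratio 1.08, SE 0.54, adjusted p = 0.134).

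Hmox1 encodes heme oxygenase 1, which opens the heme ring, and Nqo1 a quinone reductase. Both had weak promoter regions in which every HP library exceeded every LP library. For Hmox1 the scaled pileups were 1.66 and 2.02 in LP and 2.18 and 5.47 in HP (log2 ratio 0.92, SE 0.54, adjusted p = 0.181). For Nqo1 they were 0.959 and 0.716 in LP and 1.31 and 3.23 in HP (log2 ratio 1.31, SE 0.54, adjusted p = 0.0942). Of the promoter regions named for each gene, that of Nqo1 was the only one with a ratio above the median of all tested regions, 0.92. The second promoter regions of Mafg, above, and Gclc, below, also had ratios above it. The LP values of the Nqo1 promoter region rest on 11 fragments at the summit in each library, against 15 and 46 in HP.

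Among the glutathione genes, Gclc and Gclm encode the catalytic and modifier subunits of glutamate-cysteine ligase, the first step of glutathione synthesis. The Gclc promoter region with the highest mean scaled pileup was chr9:77749749-77752041, between 2.49 and 4.79 kb upstream of the start, where the full element printed above sits 60 bases from the summit in both LP libraries and 49 bases from it in HP replicate 2. In HP replicate 1 the distance was 178 bases. The peak of each of the 4 libraries covered this element. The upstream region had scaled pileups of 7.76 and 3.26 in LP and 6.53 and 11.9 in HP, with overlap between the groups (log2 ratio 0.81, SE 0.54, adjusted p = 0.222). The mean was 7.35 upstream and 6.57 over the start, an order that rests on LP replicate 1, since without it the means were 7.21 and 7.45. The region over the Gclc start, chr9:77754441-77755331, held no core and had 3.92 and 3.52 in LP and 7.40 and 11.4 in HP. There both HP libraries exceeded both LP libraries, and the log2 ratio was 1.31 (SE 0.54, adjusted p = 0.0942).

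Gclm had scaled pileups of 9.50 and 4.10 in LP and 9.06 and 11.5 in HP, which overlapped (log2 ratio 0.71, SE 0.54, adjusted p = 0.268). Slc7a11 had 0.698 and 1.37 in LP and 1.13 and 2.10 in HP, which also overlapped (log2 ratio 0.66, SE 0.54, adjusted p = 0.296). Its LP replicate 1 value was 8 fragments. This gene spans 551 kb, and of the 25 regions in it and its flanks 22 were called in 1 library only.

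The thioredoxin genes of the list are Txnrd1, the cytosolic thioredoxin reductase, and Srxn1, sulfiredoxin, which restores overoxidised peroxiredoxins. Txnrd1 had scaled pileups of 7.32 and 6.45 in LP and 5.75 and 16.7 in HP. HP replicate 1 was the lowest of the 4 and HP replicate 2 the highest (log2 ratio 0.51, SE 0.54, adjusted p = 0.400). Srxn1 showed the same order of HP libraries around LP, with 16.9 and 10.1 in LP and 8.36 and 21.5 in HP. The log2 ratio was 0.04 (SE 0.54, adjusted p = 0.947). Its ratio was −1.02 in set 1 and 1.09 in set 2.

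Over the 10 promoter regions the median log2 ratio was 0.64, below the 0.92 of all tested regions and the 0.88 of 8552 promoter regions. All 10 ratios were above 0, as were 99.0% of all tested regions, but 9 of the 10 fell below the median of all regions. When each library was centred on its own median the median of the 10 became −0.37, with values from −0.97 at Srxn1 to 0.30 at Nqo1, and 1 of the 10 above 0. Both HP libraries exceeded both LP libraries in 3 of the 10, Keap1, Hmox1 and Nqo1. The background was 74.8% of the 12084 regions and 73.7% of the 8552 promoter regions. The sets differed. HP exceeded LP in 4 of the 10 in set 1, with a median log2 ratio of −0.16, and in 10 of the 10 in set 2, with a median of 1.41.

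The ratio in set 1 also moved with the level of a promoter. When the 8552 promoter regions were divided into 5 groups of equal size by mean scaled pileup, the median log2 ratio in set 1 was 0.69 in the lowest group and 0.07 in the highest, whereas in set 2 it was 1.19 and 1.29. The 291 promoter regions at or above the level of Srxn1 had medians of −0.28 in set 1 and 1.31 in set 2. Both HP libraries exceeded both LP libraries in 27.1% of them. Over both sets the median log2 ratio was 0.95 in the lowest group, 0.69 in the highest and 0.54 in the 291 regions. Mafg, Nfe2l2 and Srxn1 belong to these 291 regions. Their ratios in set 1 were −0.76, −0.71 and −1.02. The part of promoter level in the ratios of the 10 genes was not tested.

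**Figure D2:**
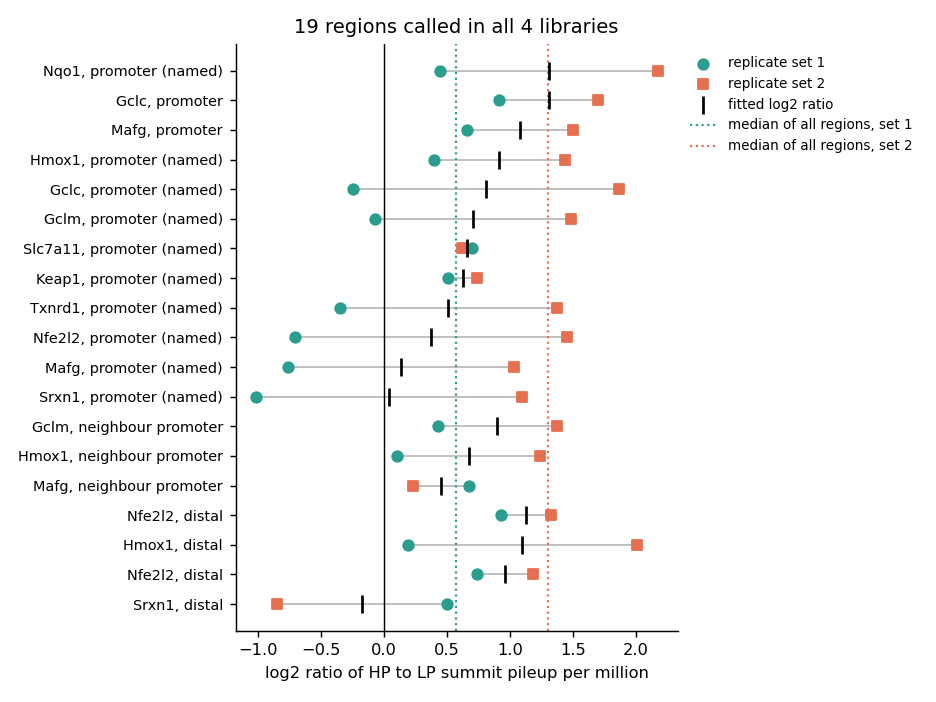
Log2 ratio of HP to LP scaled pileup for the 19 regions at the 10 genes called in all 4 libraries, in set 1 (circles), in set 2 (squares) and as fitted by limma (bars), with the medians of all tested regions, 0.57 and 1.30, as dotted lines. The named promoters Srxn1, Mafg, Nfe2l2, Txnrd1, Gclc and Gclm lie below 0 in set 1, and the distal region of Srxn1 is the single region with set 2 below 0.

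In all, 19 of the 129 regions were called in all 4 libraries and could be tested, 12 promoter regions, 3 promoter regions of neighbouring genes and 4 distal regions. limma called 0 of the 19 higher in HP against the background of 4.01%, and 5 had an unadjusted p under 0.05, as did 36.2% of all tested regions: the Nqo1 promoter, the Gclc start, the internal Mafg start, and distal regions of Nfe2l2 and Hmox1. The lowest adjusted p was 0.0942. Without HP replicate 1 the count was 10, where 57.3% of all tested regions were called, and it was 0 without any other single library. Of the 19 ratios 18 were above 0, as were 99.0% of all tested regions. In 17 of the 19 HP replicate 2 had the highest value, a share not computed over all regions. Both HP libraries exceeded both LP libraries in 10 of the 19, against the background of 74.8%. The neighbouring genes were Mcm5 beside Hmox1, Dnttip2 beside Gclm and Sirt7 beside Mafg, with log2 ratios of 0.67, 0.90 and 0.45.

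Away from starts, the 4 distal regions called in every library had a median log2 ratio of 1.03, near the 0.92 of all tested regions, and 0.018 after centring. In 3 of them both HP libraries exceeded both LP libraries, against the background of 74.8%. The largest lies in an intron of Nfe2l2, 17.1 to 23.9 kb from the start, at chr2:75680765-75687589. It merged several summits and had scaled pileups of 1.83 and 2.02 in LP and 3.48 and 5.05 in HP (log2 ratio 1.13, SE 0.54, adjusted p = 0.125). In the LP libraries 1522 and 2245 bp of it lay under peaks, and in the HP libraries 5804 and 5336 bp. A second intronic region of Nfe2l2, 7.74 to 8.91 kb from the start, was weaker, with 0.523 and 0.586 in LP and 0.871 and 1.33 in HP (log2 ratio 0.96, SE 0.54, adjusted p = 0.166). In both intronic regions HP exceeded LP in each set, which the Nfe2l2 promoter did not show in set 1. The difference between promoter and introns was not tested.

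The distal region of Hmox1 is the one with 3 full elements, chr8:75082925-75084187. Its scaled pileups were 1.22 and 0.716 in LP and 1.39 and 2.88 in HP, from 14 and 11 fragments in LP and 16 and 41 in HP. HP lay above LP, though HP replicate 1 only narrowly (log2 ratio 1.10, SE 0.54, adjusted p = 0.130, with 0.19 in set 1 and 2.00 in set 2). The LP peaks spanned 243 and 853 bp and the HP peaks 510 and 1263 bp, and only the peak of HP replicate 2 extended over the 3 full elements. The summit of HP replicate 2 itself lay 514 to 571 bases from them. The nearest was that of LP replicate 1, at 189 to 246 bases, and the summits of LP replicate 2 and HP replicate 1 lay 535 to 851 bases away. The fourth distal region, downstream of Srxn1 at chr2:152114436-152115193, had 1.05 and 1.89 in LP and 1.48 and 1.05 in HP (log2 ratio −0.17, SE 0.54, adjusted p = 0.766), the lowest ratio of the 19.

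**Figure D3:**
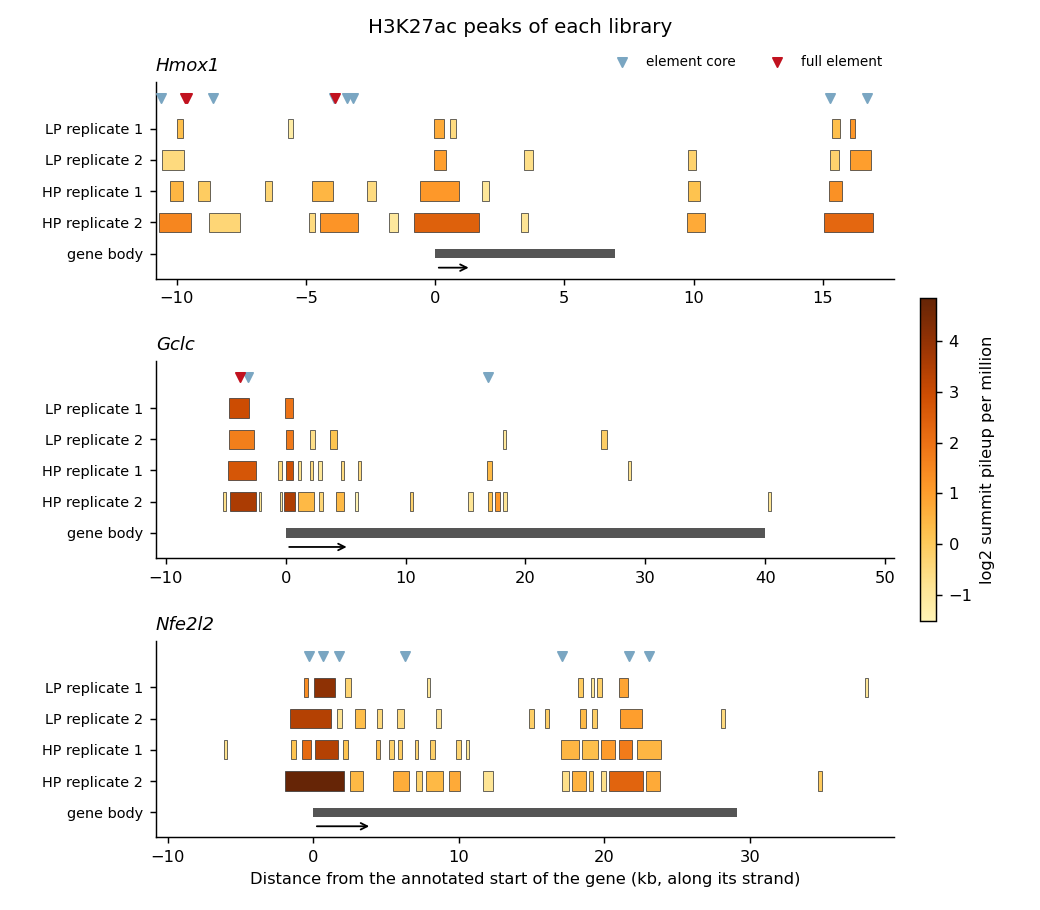
Peaks of each library along Hmox1, Gclc and Nfe2l2 and 10 kb on either side, by distance from the annotated start in kb along the strand of the gene; colour gives the log2 scaled pileup at the summit, triangles mark ARE cores (blue) and full elements (red) in regions shared by at least 2 libraries, and the grey bar is the gene. Peaks of the HP libraries between 3 and 5 kb upstream of Hmox1 have no counterpart in LP, and the upstream region of Gclc is present in all 4 libraries.

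Peaks called in both HP libraries and in neither LP library made up 12 of the 129 regions (9.30%), 6 of them promoter regions and 6 distal. Over all regions the share was 3.94%, and over the regions at protein-coding genes whose promoter was called in all 4 libraries it was 5.25%. No region was called in both LP libraries and neither HP library, against 0.249% of all regions. When peaks had to share 50% of both lengths, the counts were 6 for HP and 3 for LP. Shares over all regions were not computed for this overlap or with libraries left out. The 12 regions lay at 7 genes, with 4 at Gclc, 2 each at Nfe2l2 and Hmox1, and 1 each at Txnrd1, Slc7a11, Mafg and Srxn1. They were weak: their summits held 5 to 33 fragments, where the lowest pileup in the lists was 5 or 6 fragments. With 1 library of a population left out the count lay between 13 (without LP replicate 1) and 49 (without HP replicate 1), and was 17 without LP replicate 2 and 32 without HP replicate 2. Without LP replicate 1, LP replicate 2 or HP replicate 2 there were 10, 14 and 1 regions called only in LP.

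The strongest of the 12 lay 2.99 to 4.90 kb upstream of Hmox1, chr8:75088722-75090633, with scaled pileups of 1.39 and 2.31, or 16 and 33 fragments, in HP replicates 1 and 2. It is classed with the promoter because its edge reached the 3 kb limit. The core and full element printed above for this region were covered by the peak of HP replicate 2 only. They lay 351 and 403 bases from the summit of HP replicate 1, and 227 and 279 bases from that of HP replicate 2. Another Hmox1 region, 7.57 to 9.18 kb upstream, had 11 fragments in each HP library. Over the whole Hmox1 window, peaks covered 4893 and 9153 bp in HP against 1558 and 2577 bp in LP.

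The remaining regions called only in HP were intronic or near starts. In introns of Nfe2l2, 2 such regions lay 9.30 to 10.1 kb and 6.96 to 7.48 kb from the start, with 9 and 24 fragments and 9 and 12 fragments in HP replicates 1 and 2. At Gclc, 3 of the 4 were intronic, and the one 16.8 to 17.2 kb inside the gene was the highest, with scaled pileups of 1.31 and 1.19. An intronic region of Srxn1, 1.16 to 1.71 kb from the start, had 1.39 and 0.912. The others, in Txnrd1, Slc7a11 and Mafg, had scaled pileups between 0.522 and 1.19.

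Over the windows of the 10 genes, peaks numbered 47 and 49 in the LP lists and 71 and 89 in the HP lists. They covered 21668 and 31461 bp in the LP lists, and 41900 and 68327 bp in the HP lists. In 8 of the 10 genes both HP libraries covered more sequence than both LP libraries. The exceptions were Nqo1, where LP replicate 2 covered 1679 bp and HP replicate 1 covered 1628 bp, and Slc7a11, where LP replicate 1 covered 2032 bp and HP replicate 1 covered 1775 bp. The lists as wholes also covered more in HP, with 18.9 and 30.3 Mb in LP and 31.9 and 43.9 Mb in HP. The same count over all protein-coding genes was not made, so the 8 of 10 has no background. Of the 129 regions 81 (62.8%) were called in 1 library only, against 81.7% of all regions.

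A wider list of 42 genes of antioxidant defence was read in the same way. A promoter region was called in all 4 libraries for 37 of them, and limma called 1 higher in HP and 14 at an unadjusted p under 0.05, near the share of 36.2% over all tested regions. The median log2 ratio was 0.98, near the 0.92 of all tested regions, and both HP libraries exceeded both LP libraries in 28 of the 37, near the background of 74.8%. The 1 gene called was Prdx3, the mitochondrial peroxiredoxin, with 1.48 and 1.37 in LP and 3.48 and 9.68 in HP (log2 ratio 2.03, adjusted p = 0.0358). It was no longer called after centring or when LP replicate 1, LP replicate 2 or HP replicate 2 was left out, whereas 24 of the 37 were called without HP replicate 1, a fit that called 57.3% of all regions. Next was Abcc1, an exporter of glutathione conjugates, with a log2 ratio of 1.47 (adjusted p = 0.0721). Lowest were Sqstm1, whose product p62 sequesters KEAP1, with 0.26 (adjusted p = 0.655) from a region shared with Mgat4b, and Sod1, the cytosolic superoxide dismutase, with 0.30 (adjusted p = 0.604).

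By group, the thioredoxins, their partners and peroxiredoxins had 9 of 9 tested genes with both HP libraries above both LP libraries. Their median log2 ratio was 1.26, and 5 had an unadjusted limma p under 0.05. Over all tested regions these shares were 74.8% and 36.2%. The wider list leaves out the 10 genes, and with Txnrd1 and Srxn1 counted the group had 9 of 11 and a median of 1.05. Genes of NADPH supply had 5 of 6 and a median of 0.97. Those of heme and iron had 4 of 5 and a median of 0.86. Glutathione genes had 4 of 7 and a median of 0.78, the other regulators had 4 of 7 and a median of 0.81, and genes against superoxide and peroxide had 2 of 3 and a median of 0.81. Gsta4, Gstm1, Gstp1, Mgst2 and Glrx had promoter regions in fewer than 4 libraries and were not tested.

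**Figure D4:**
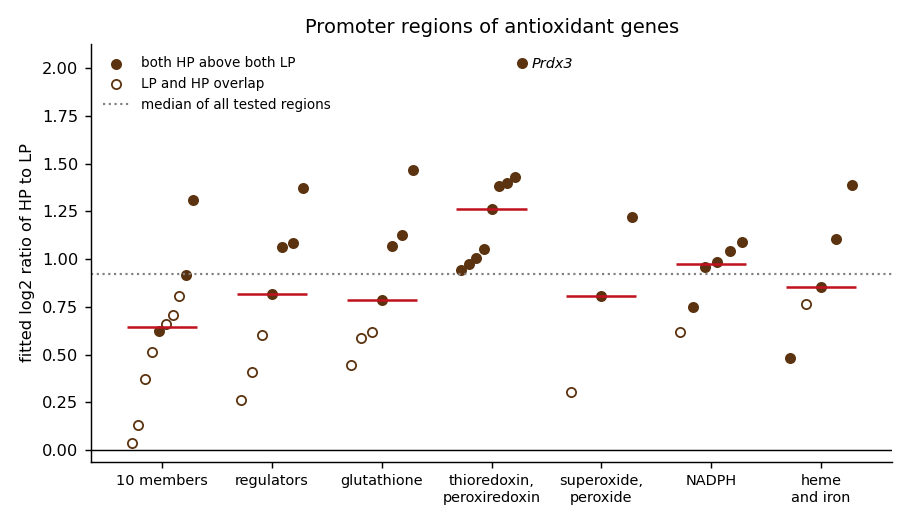
Fitted log2 ratio of HP to LP at the promoter region of the 10 genes and of the wider list by group, with 1 point per gene, filled where both HP libraries exceeded both LP libraries, a red bar at the group median and a dotted line at 0.92, the median of all tested regions. Prdx3 lies highest, at 2.03, and the 10 genes have the lowest group median, 0.64.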

How the data were processed

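H3K27ac ChIP-seq libraries of LP and HP cells, 2 each, were analysed, and samples were grouped by their labels. The authors trimmed and aligned paired-end reads (Trimmomatic 0.33, Bowtie2 2.5.1, per the submitters' processing notes) to mm10 and called peaks per library with MACS 3.0.0b1 at a q-value of 0.05, keeping duplicates, against the IgG library of unsorted cells with the same replicate number. The 2 IgG libraries have no file used here. Pileups were deposited as unscaled fragment counts at the summit. The authors' fold enrichment and −log10 q-values, and the −log10 p-values, were computed by MACS. Only −log10 q-values were used, to filter peaks and to choose the summit of each region. That summit was the one of its peak with the highest −log10 q-value, from any library. The labels give 1% formaldehyde for fixation, and the paper a higher value. Fragment totals came from the authors' MACS output.

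Peaks that shared at least 1 bp were merged into regions, whose value in a library was its highest summit pileup per 1000000 fragments. Regions within 3 kb of a start of the gene were promoter, those within 3 kb of another protein-coding gene's start neighbour promoter, and the rest distal. Of several promoter regions, the one in most libraries, then with the highest mean, was named. limma 3.58.1 (R 4.3.3) compared log2 values of the 12084 regions called in all 4 libraries. It pooled the variance over regions, hence the common SE. The code was tested on simulated data. Depth limits the weak regions: peaks had median pileups of 7 and 11 fragments in LP and 10 and 12 in HP. Nothing says that the replicates came from separate cultures, so p-values may measure technical spread.

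The libraries were paired by number, since the labels describe each replicate set as made from equal DNA. The LP difference between replicates correlated at 0.0153 with that in HP over regions, and the replicate block was an alternative. The 10 genes, the wider list, the markers, motifs and alternatives were chosen with earlier results of these data known. All 10 genes are named. Of the wider list, those passing the test and the 2 highest and 2 lowest ratios are named. Python 3.11.15, pandas 2.3.3, numpy 2.4.6 and matplotlib 3.10.9 were used. Read-level methods were left out.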

Additional observations from a re-analysis of the deposited data

How the results depend on the processing

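The count of regions at the 10 genes higher in HP was 0 with the replicate block, centring and quantile normalization. It was also 0 with pileups divided by fragment length, mean summit pileups and a mean pileup of at least 10 fragments. With the replicate block the wider list kept a count of 1, while the count over all regions fell from 485 to 88, and no other call named here changed. The wider list had 0 after centring, quantile normalization, multiplying by fragment length and taking mean summits, and 0 to 24 with 1 library left out (24 without HP replicate 1). Fits that leave an arm with 1 library assume that it varies like the other arm.

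Centring moved the median of all tested regions from 0.92 to −0.09, and the distal median fell to 0.018, or to 0.075 with quantile normalization. The promoter median became −0.37 and −0.25 under these settings. Centred promoter ratios were −0.64 for Nfe2l2, −0.39 for Keap1, −0.10 for Hmox1, −0.20 for Gclc, −0.30 for Gclm, −0.50 for Txnrd1, −0.35 for Slc7a11, −0.88 for Mafg and −0.97 for Srxn1. The centred ratio of Nqo1 was 0.30. After quantile normalization the ratios were −0.23 for Nfe2l2, −0.27 for Keap1, −0.16 for Hmox1 and −0.037 for Gclm. They were −0.30 for Txnrd1, −0.36 for Slc7a11, −0.41 for Mafg and −0.62 for Srxn1. Nqo1 and Gclc stayed above 0 under this setting, with 0.27 and 0.036. With 1 library left out, the ratio ranged from −0.35 to 1.10 for Nfe2l2, −0.26 to 1.28 for Txnrd1, −0.68 to 0.94 for Mafg and −0.64 to 0.72 for Srxn1. Without HP replicate 1 the median ratio of the 10 promoter regions was 1.10, below the 1.27 of all tested regions.

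Regions called only in HP numbered 20 in windows of 50 kb and 6 when peaks had to share 50% of both lengths, and 13 to 49 with 1 library left out. Those called only in LP numbered 3 with the 50% overlap and 0 to 14 with 1 library left out. Stricter q-values and a window of 3 kb left 9 to 12 and 0. Shares over all regions were not computed under these settings, and the cause of these moves was not tested.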
